A study of Mus musculus with 4 samples.

Results

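Of the 10964 regions in which alveolar macrophages (AMs) had a SMAD4 peak in both replicates, 500 (4.56%) had mostly repeat sequence around their midpoint. Peaks of one list that touched a peak of the other by 1 bp or more were joined with it into a shared region. A repeat region was a shared region in which more than 50% of the window from 100 bp before to 100 bp after its midpoint was soft-masked, that is, written in lower case in the mouse reference because a repeat-finding program marked it. The rule used position and reference sequence only, and no peak height. AMs are the resident macrophages of the airspaces, and they were sorted from bronchoalveolar lavage of wild-type C57BL/6J mice aged 9 weeks. HT-ChIPmentation, in which a transposase adds sequencing adapters to the immunoprecipitated chromatin, was used to map SMAD4. There were 2 SMAD4 libraries with 16369 and 19015 peaks and 2 input libraries, which had no antibody and which enter only as the control level behind each peak. All samples had the same genotype and no treatment was compared, so the comparisons are between repeat regions, the other 10464 shared regions and the genome. How many animals gave each library, and whether cells were pooled, is not given in the sources used here. With 2 lists and regions that are not replicates of each other, no difference between groups of regions was tested. Shares have exact (Clopper-Pearson) 95% intervals, which cover counting error only.

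SMAD4 is the common partner of the receptor-activated SMAD proteins, which enter the nucleus when TGFβ family receptors are active and bind short DNA elements beside other transcription factors. A large part of a mammalian genome consists of interspersed repeats, which are copies of mobile elements such as SINEs, LINEs, endogenous retroviruses and DNA transposons. Old copies have gathered mutations and can be told apart by sequencing reads, while young copies are near-identical and often cannot. Some copies hold binding sequences for transcription factors and act as regulatory elements. In macrophages, C/EBP proteins and PU.1 open many of the sites that signal-dependent factors such as SMADs then use.

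The windows of 6 repeat regions show what kinds of sequence these were. They are given for the plus strand of RefSeq GRCm38.p6 (mm10), 5′ to 3′. In the first 4, capitals mark the string named before each. Lower case in the sequences printed here and below does not show soft-masking, and a marked string may lie outside the repeat. Soft-masked bases were 72.1% of the Cbwd1 window, 53.2% of the Lonrf1 window and 68.7% of the Itgax window. The C/EBP string was TTGCNNAA and the RUNX string TGTGGT, searched on both strands, so that a match on the minus strand shows as its reverse complement.
RUNX string, copy of the SINE B1, nearest Cbwd1, chr19:24966811-24967011: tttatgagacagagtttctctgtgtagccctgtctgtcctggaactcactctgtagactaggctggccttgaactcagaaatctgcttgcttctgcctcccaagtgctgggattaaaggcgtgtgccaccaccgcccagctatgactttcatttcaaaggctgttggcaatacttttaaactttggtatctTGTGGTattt
RUNX string, largest family, nearest Lonrf1, chr8:36267442-36267642: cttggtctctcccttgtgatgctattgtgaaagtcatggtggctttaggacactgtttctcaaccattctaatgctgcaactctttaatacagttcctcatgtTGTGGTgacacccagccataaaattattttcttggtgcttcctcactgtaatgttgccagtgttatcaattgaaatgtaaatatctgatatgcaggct
C/EBP string, wholly soft-masked window, nearest Msh6, chr17:87972080-87972280: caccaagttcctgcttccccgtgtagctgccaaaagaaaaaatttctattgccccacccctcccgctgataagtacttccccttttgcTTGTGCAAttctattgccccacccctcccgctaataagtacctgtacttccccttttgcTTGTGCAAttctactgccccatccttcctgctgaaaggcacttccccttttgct
C/EBP string, listed AM gene, nearest Itgax, chr7:128110260-128110460: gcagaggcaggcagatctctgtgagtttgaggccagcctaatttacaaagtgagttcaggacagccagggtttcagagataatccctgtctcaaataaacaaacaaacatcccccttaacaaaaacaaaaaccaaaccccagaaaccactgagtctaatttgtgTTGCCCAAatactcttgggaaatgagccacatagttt
Tandem runs in capitals, promoter window, nearest Lilrb4a, chr10:51490610-51490810: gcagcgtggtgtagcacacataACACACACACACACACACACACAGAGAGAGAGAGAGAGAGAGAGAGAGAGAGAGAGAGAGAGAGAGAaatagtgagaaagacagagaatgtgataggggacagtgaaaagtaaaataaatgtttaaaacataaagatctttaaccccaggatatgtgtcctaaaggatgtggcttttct
No marked string, high control level, nearest Lrrc4c, chr2:98667089-98667289: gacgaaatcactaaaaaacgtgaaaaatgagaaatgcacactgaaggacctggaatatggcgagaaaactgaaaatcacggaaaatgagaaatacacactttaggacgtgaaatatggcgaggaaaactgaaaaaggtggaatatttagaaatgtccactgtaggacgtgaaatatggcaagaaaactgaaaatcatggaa
The wholly soft-masked Msh6 window held a pair of C/EBP strings. The Lilrb4a window consisted for 67 of its bases of CA and GA runs. The window nearest Lrrc4c was read by its letters, and by no annotation, as mouse major satellite, the repeat of pericentromeric heterochromatin.

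Repeat sequence was scarcer in shared SMAD4 regions than in the genome. Of all 12732868 windows of this length that tile chromosomes 1 to 19 and X without gaps, 28.1% were soft-masked by the same rule, against 4.56% of shared regions. Tiles were not filtered for whether reads could be placed in them, and the part of this in the difference was not tested. Without a partner asked for, 9.7% of the peaks of replicate 1 and 6.04% of those of replicate 2 were soft-masked. Among shared regions the share ranged from 2.88% on chromosome 13 to 7% on chromosome 12. It was 4.49% on chromosome X, the chromosome with the most soft-masked bases (46.8%). In the other shared regions soft-masked bases made up 9.38% within 50 bp of the midpoint and 19.8% at 200 to 250 bp. At 1950 to 2000 bp they made up 26.7%, compared with 34.3% of sequenced bases on chromosomes 1 to 19 and X. The share thus stayed lower far beyond the window that the rule used. The rule kept these regions for at most 50% soft-masked bases in the window, so their low values there follow in part from it. Repeats that cross its edge can extend this outward, and no profile of all shared regions was made. Around repeat regions the share was 72.4% within 50 bp, which the rule fixed, 44.9% at 200 to 250 bp and 32.3% at 1950 to 2000 bp. Most windows of repeat regions also held bases that were not soft-masked, and the length of the repeats was not measured. In 43 of the 500 the whole window was soft-masked, and over all windows 31011 bases (30.9%) were not repeat. The summit base itself was soft-masked in 303 repeat regions in replicate 1 (60.6%, 56.2 to 64.9) and in 298 in replicate 2 (59.6%, 55.2 to 63.9). At the limit of the rule, 15 repeat regions had 50.2% soft-masked bases, with median fold enrichments of 5.2 and 9.82, and 9 other regions had 49.8%, with 6.26 and 5.87.

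**Figure D1:**
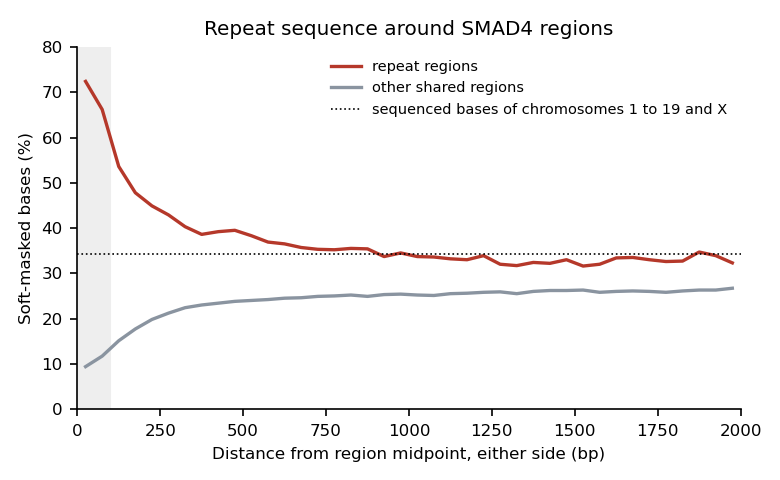
Share of soft-masked bases (y axis, percent) by distance from the region midpoint on either side (x axis, bp, bins of 50 bp) for repeat regions (red) and other shared regions (grey), with the share of all sequenced bases as a dotted line and the part that the rule used shaded. The red line falls from 72.4% to the genome share within about 1000 bp, and the grey line rises from 9.38% and stays below it at 2000 bp.

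SMAD4 enrichment in repeat regions was close to that in other shared regions. Fold enrichment is the number of fragments stacked at the peak summit plus 1, over the control level plus 1, as the authors' peak caller gave it. The median of repeat regions was 6.4 in replicate 1 (quartiles 4.87 and 9.75) and 9.02 in replicate 2 (6.32 and 13.6), against 6.82 (5.2 and 9.75) and 9.48 (6.77 and 14.4) in the other shared regions. These folds rest on few fragments, with a median of 20 at the summit of repeat regions in each replicate. Both groups hold only regions with a peak in both lists. Over all peaks of a list, the median fold was 4.77 for soft-masked peaks and 5.52 for others in replicate 1. In replicate 2 it was 5.87 and 6.77. A fold of at least 10 in both replicates was reached by 107 repeat regions (21.4%, 17.9 to 25.3), against a background of 23.3% of all shared regions. The ranks of the folds in both replicates had a Spearman rho of 0.786 over the 500 repeat regions and 0.781 over the 10464 others, where all points share the same 2 libraries. Summits of the replicates lay a median of 50.5 bp apart in repeat regions and 49 bp in the others.

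**Figure D2:**
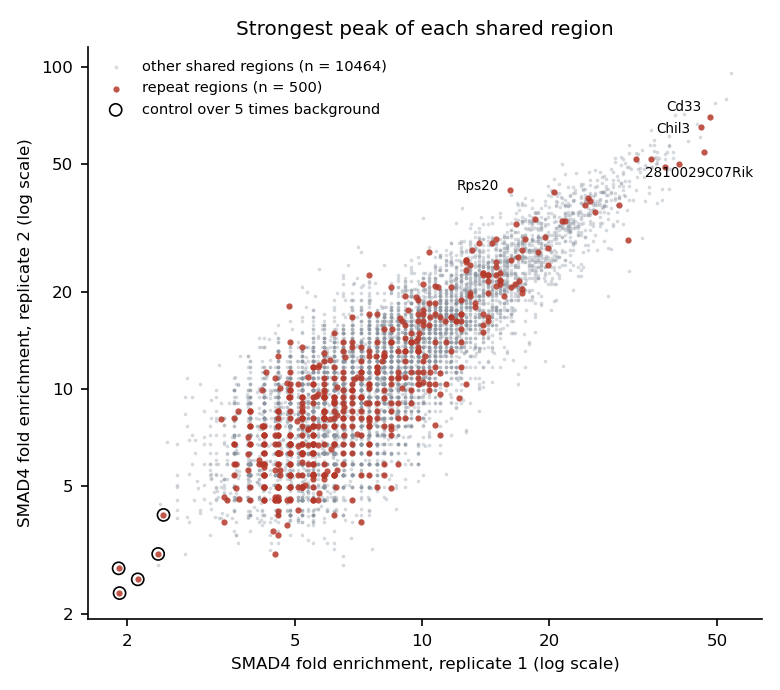
Fold enrichment of every shared region, taken at its strongest peak, in replicate 1 (x axis) and replicate 2 (y axis), both on log scales, for 500 repeat regions (red) and 10464 others (grey). Repeat regions lie along the whole cloud, from the 5 circled regions with a high control level at the lower left to the region nearest Cd33 at 48.1 and 69.9.

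Among all shared regions ranked by the smaller of both folds, 3 repeat regions held ranks 4, 5 and 6, and the next held ranks 11, 23 and 44. A fold of at least 20 in both replicates was reached by 16 repeat regions (3.2%, 1.84 to 5.14), against 3.84% of all shared regions. The region nearest Cd33, a sialic acid-binding receptor of myeloid cells, had folds of 48.1 and 69.9 from 147 and 154 fragments and ranked 4th by the smaller fold. It was intergenic and had its midpoint 12892 bp upstream of the transcription start site (TSS). The region nearest 2810029C07Rik (chr12:111560558-111561606) had 46.4 and 54.7, and with 50.2% soft-masked bases it only just met the rule. The region nearest Chil3, the chitinase-like protein that AMs secrete, had 45.8 and 65.4 at 5218 bp upstream of the TSS. Its window was 92.5% soft-masked, against 58.2% for that of Cd33.

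The other strong repeat regions lay near genes with varied roles. The region 5295 bp upstream of Cbwd1 had folds of 40.6 and 50.1. The region nearest Htr1f, a serotonin receptor gene 91752 bp away, had 37.7 and 49. An intronic region nearest Luzp1 had 34.8 and 51.9. The region 3895 bp upstream of Srd5a3, an enzyme of dolichol synthesis, had 32.2 and 51.9. The regions nearest Lonrf1, Gm6639 and Gm10556 closed the first 10, with 29.2 and 37.5, 30.7 and 29.1, and 25.7 and 35.6. None of these 10 lay in a promoter or an exon, and 9 were intergenic. Control levels stood at the library background of 2.08 and 1.22 fragments at 7 of them, and were at most 2.45 and 1.85 at the others.

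Weak peaks in repeat sequence were found again in the other replicate less often than weak peaks elsewhere, and strong ones about as often. Of all peaks, 69.4% had a partner in replicate 1 and 59.2% in replicate 2. Of the 1588 peaks of replicate 1 with a soft-masked midpoint window (9.7% of its list), 33.2% had one (30.9 to 35.6), against 73.3% of the rest (72.6 to 74). In replicate 2 these were 1148 peaks (6.04%), of which 44.7% had a partner (41.8 to 47.6), against 60.1% (59.4 to 60.9). The difference stood within classes of similar height. Below a fold of 5, partners were found for 16.8% of soft-masked peaks and 43.8% of others in replicate 1, and for 15.9% and 21.8% in replicate 2. From 5 to 10, the values were 50.4% and 87.7% in replicate 1, and 44.1% and 56.1% in replicate 2. At folds of at least 10, all 105 soft-masked peaks of replicate 1 had a partner (96.5 to 100), as did 99.1% of the 215 in replicate 2 (96.7 to 99.9), against 99.9% and 98.5% of others. Base composition moved with this. Soft-masked peaks without a partner had a mean GC content of 25.6% in replicate 1 and 36.2% in replicate 2, and those with a partner 40.7% and 41.4%. Tandem repeats made up 7.16% and 3.98% of these classes in replicate 1, and the C/EBP string was in 7.73% and 29.2% of their windows. The part of base composition in the missing partners was not tested.

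**Figure D3:**
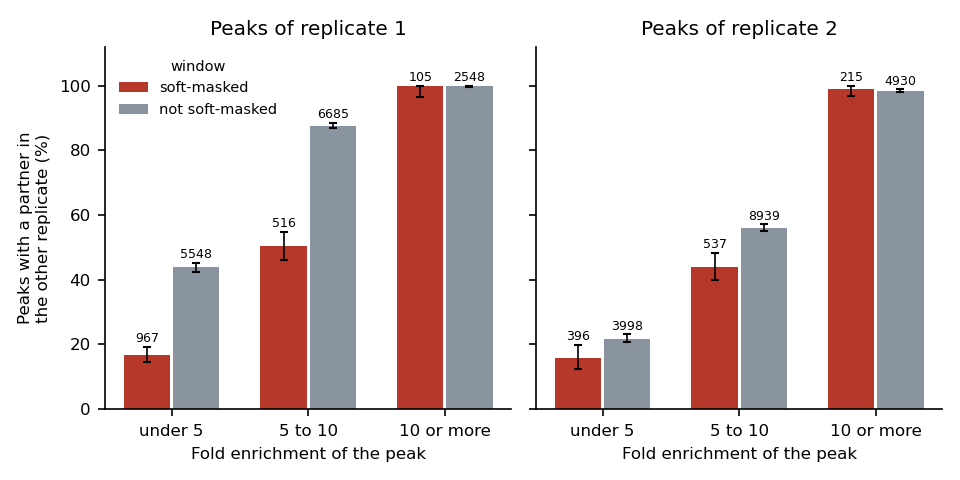
Share of peaks with a partner in the other replicate (y axis, percent, bars from 0, error bars exact 95% intervals, number of peaks above) by fold class of the peak (x axis), for peaks with a soft-masked midpoint window (red) and all others (grey), in replicate 1 (left) and replicate 2 (right). Red bars are lower below a fold of 10, by most in replicate 1 (50.4% against 87.7% from 5 to 10), and both bars are near 100% above it.

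Repeat regions lay in promoters less often than other shared regions, and more often than repeats do in general. A promoter ran from 1 kb upstream to 100 bp downstream of a TSS. Intergenic sequence held 264 repeat regions (52.8%, 48.3 to 57.2), introns 219 (43.8%, 39.4 to 48.3), promoters 10 (2%, 0.963 to 3.65), transcription termination sites 4 and exons 3. The other shared regions were 39.8% intergenic, 49.6% intronic and 6.69% in promoters (6.22 to 7.19). Soft-masked tiles of the genome were 70.1% intergenic, 28.4% intronic and 0.477% in promoters. The median distance to the nearest TSS was 18677 bp for repeat regions and 17993 bp for the others, with 54 repeat regions (10.8%) and 9.13% of the others beyond 100 kb.

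Folds of the 10 promoter regions ran from 4.18 to 12.3 in replicate 1 and from 4.19 to 19 in replicate 2. Lilrb4a, an inhibitory receptor of myeloid cells, had folds of 12.3 and 19 with the midpoint 188 bp upstream of the TSS, in the CA and GA runs shown above. Emd, which encodes the nuclear envelope protein emerin, had 12.3 and 17.1, and A130077B15Rik had 10.4 and 9.93 with its summits 761 bp apart. The remaining 7 were named after their values were seen. Gpr84, a receptor for medium-chain fatty acids on activated macrophages, had 5.67 and 11.7 at 207 bp upstream. Adgre1, which encodes the macrophage marker F4/80, had 4.18 and 5.86 at 824 bp upstream, with C/EBP, PU.1 and RUNX strings in an 89.6% soft-masked window. Slc31a2, a copper transporter gene, had 4.55 and 4.19, and Zfp809, a zinc finger repressor of retroviral DNA, had 6.5 and 11.3. The region assigned to Zfp608 lay 731 bp downstream of the nearest TSS, outside the promoter of that TSS, and was in the promoter of Gm4221, a long non-coding RNA gene on the other strand. E330033B04Rik, Lman2l and Zfp608 had folds between 4.77 and 8.05 in replicate 1 and between 5.87 and 12.2 in replicate 2. The exonic regions lay nearest Sost (16.6 and 21.2, a B1 copy), Nr2c1 (12.3 and 16.2) and Socs6 (5.2 and 7.67).

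Few genes of any list had a repeat region as neighbour, and the counts are too small to be read against the background of all genes. The 500 repeat regions had 469 nearest genes, and 384 of 21000 protein-coding genes (1.83%) had such a region as neighbour, against 21.4% for any shared region. Of 37 annotated genes of AM identity, 34 were nearest to a shared region and 2 to a repeat region. Those 2 were Chil3 and Itgax, which encodes the integrin CD11c. The Itgax region had folds of 6.17 and 7.67 from 18 and 16 fragments. It lay 19190 bp upstream of the nearest Itgax TSS, in an intron of another transcript, whose gene was not recorded and may not be Itgax. Its window aligned to B1 and held a C/EBP string. These 2 were among 109 shared regions nearest to genes of the list, where 4.56% of all shared regions were repeat regions. Of 26 lineage and signal factors, 16 were nearest to a shared region and only Runx1, a factor of blood cell development, to a repeat region, with 5.85 and 8.12. Of 32 genes of the TGFβ and SMAD pathway these were 18 and only Tgfbr1, the type I TGFβ receptor, with 5.2 and 4.96 and a PU.1 string. Of 27 lipid handling genes 18 had a shared region and none a repeat region, and of 25 innate sensing genes 15 and none. With 1.83% of all genes next to a repeat region, none in lists of this size is near the background. Of 14 marker genes of other lineages, 2 were nearest to a shared region and none to a repeat region.

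Repeat regions carried the strings of macrophage factors about as often as other shared regions did, with the ELF5-type string as the exception. The C/EBP, PU.1, AP-1, RUNX, ELF5-type and nuclear receptor strings and the E-box were in a larger share of repeat regions than of soft-masked tiles. Unmasked bases of the windows count in these shares, and the soft-masked bases alone were not compared with those of the tiles. The C/EBP string was in 172 repeat regions (34.4%, 30.2 to 38.7), 38.7% of the others (37.8 to 39.7) and 8.61% of soft-masked tiles. PU.1, the ETS factor of myeloid cells (GAGGAAGT), was in 33 repeat regions (6.6%, 4.59 to 9.14), 7.54% of the others and 1.21% of soft-masked tiles. The AP-1 string TGAGTCA was in 6.2% (4.25 to 8.69), 8.61% and 1.8%, and the RUNX string in 26.8% (23 to 30.9), 25.8% and 14%. The ELF5-type ETS string CAGGAAGT was in 2.6% of repeat regions (1.39 to 4.41) and 5.54% of the others (5.11 to 6), and in 0.83% of soft-masked tiles. The SMAD string GTCTGG differed little, with 10.4% (7.87 to 13.4), 11.6% and 8.73%, as did the STAT5 string TTCNNNGAA with 7% (4.92 to 9.6), 7.93% and 8.03%. The SMAD palindrome GTCTAGAC was in 1 repeat region. The nuclear receptor string AGGTCA was in 12.6% (9.82 to 15.8), 15.1% and 9.44%, and its direct repeat with a spacer of 1 base (DR1) in none (interval up to 0.735%). The E-box CACGTG was in 3.6%, 3.5% and 1.76%, and the RBPJ string GTGGGAA in 3.4%, 4.26% and 2.54%. The CTCF string was in no repeat region and 0.287% of the others. GAGGAAGT and CAGGAAGT share their last 7 letters, DR1 contains AGGTCA, and a match is a description, not a site.

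Within repeat regions the C/EBP strings were densest outside the repeat. Of 200 occurrences, 82 lay wholly in soft-masked bases (41%, 34.1 to 48.2), 74 wholly in unmasked bases and 44 across an edge, where soft-masked bases were 69.1% of all window bases. This was 1.18 occurrences per kb of soft-masked and 2.39 per kb of unmasked sequence. PU.1 strings had 0.201 and 0.484 per kb, and nuclear receptor strings 0.403 and 0.871. RUNX strings were spread much as the bases were, with 105 of 155 wholly soft-masked (67.7%, 59.8 to 75). SMAD strings were so too, with 44 of 65 (67.7%, 54.9 to 78.8), as were STAT5 strings, with 23 of 35 (65.7%, 47.8 to 80.9).

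**Figure D4:**
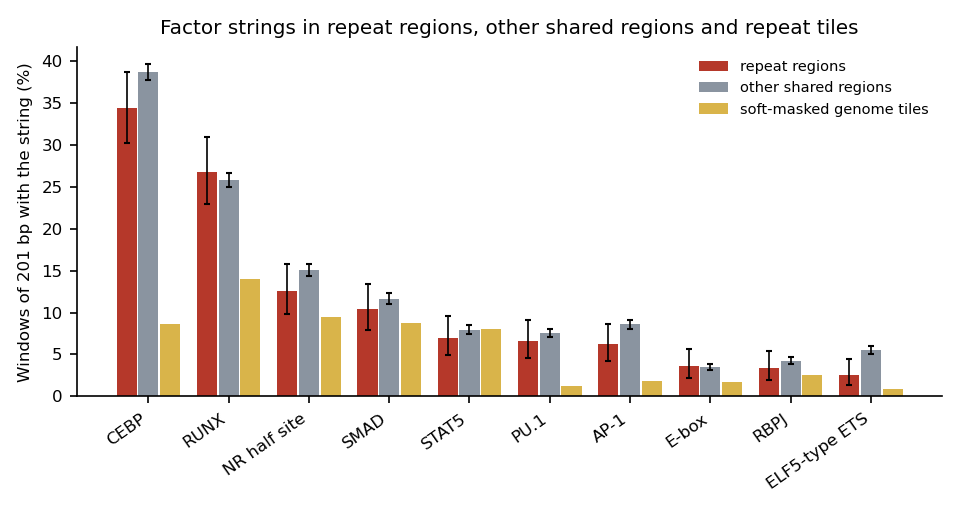
Share of windows with each string (y axis, percent, bars from 0) in repeat regions (red), other shared regions (grey) and soft-masked genome tiles (yellow), with exact 95% intervals for the regions. The C/EBP bars stand at 34.4%, 38.7% and 8.61%, while the STAT5 bars are level at 7%, 7.93% and 8.03%.

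Most repeat regions had sequence that occurs once in the genome. The reads of the study were 51 bases long, and in 311 repeat regions (62.2%, 57.8 to 66.5) every 51-mer of the window occurred once in the genome, compared with 97.8% of the other shared regions. The mean share of unique 51-mers was 91.6% ± 16.6 (SD over regions, n = 500) and 99.6% ± 3.89 (n = 10464). Under 50% were unique in 19 repeat regions, whose median folds were 6.29 and 9.93. Counts of 21-mers, which show shorter likeness, had a median of 1 in the typical repeat region, at least 10 in 96 regions (19.2%) and at least 100 in 31 (6.2%). The extremes were the region nearest Tbl1xr1, with a median 21-mer count of 4943, 9.27% unique 51-mers and folds of 7.47 and 22.6, and the region nearest Gm39859, with no unique 51-mer and 6.17 and 14.9. The region nearest Rnase6, a secreted ribonuclease gene, had 1.99% and folds of 7.15 and 13.5. The authors kept properly paired reads of high mapping quality, and a fragment is placed by both of its ends, so that the 51-mers of the window alone do not decide whether a fragment could be placed.

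Control levels over 5 times the background in both replicates were found in 10 shared regions, of which 5 were repeat regions and 5 were not. The 5 repeat regions are described here. They lay nearest Lrrc4c (2 regions on chromosome 2), Gm2237 (2 on chromosome 14) and 4933422A05Rik (chromosome 9), aligned to each other, and shared the satellite letters shown above. Their control levels were 26.7 to 153 fragments in replicate 1 and 16.7 to 85.6 in replicate 2, where the background was 2.08 and 1.22. The region at chr2:98667040-98667338 had the most summit fragments of all shared regions, 374 and 351, but folds of only 2.44 and 4.06. The folds of the 5 were 1.91 to 2.44 and 2.32 to 4.06, which put them between ranks 10958 and 10964 of 10964. Control levels over 1% above background, with these 5 included, were found in 22.2% of repeat regions in replicate 1 (18.6 to 26.1) and 21.4% in replicate 2 (17.9 to 25.3), and in 18% and 17.3% of the others.

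Repeat regions fell into families of like sequence. Windows were aligned with each other, and those that aligned over at least 100 bp, directly or through others, formed a family. Of the 480 regions that were no tandem repeats, 218 were like no other, 56 formed 17 families of 2 to 9, and 206 formed 8 families of at least 10. The families had 49, 45, 24, 23, 20, 17, 15 and 13 members. Median folds were 6.5 and 9.47 for regions like no other, and 6.24 and 8.57 for those in the 8 large families. The C/EBP string was in 39% (32.5 to 45.8) and 34% (27.5 to 40.9) of them.

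The largest family, of 49, held diverged copies. Its best-connected window aligned with 43 others at a median identity of 82.1%, and all its 51-mers were unique in the typical member. Its folds ran from 3.58 to 29.2 in replicate 1 and from 3.07 to 37.5 in replicate 2, with medians of 8.12 and 9.68. The strongest members were nearest Lonrf1, Syde2 (21.8 and 33.4) and Ctu1, an enzyme of tRNA modification (17.2 and 20.5). RUNX strings were in 34 members and C/EBP strings in 18. The family of 45 was a chain in which the best-connected window aligned with only 14 others, and it was almost wholly repeat, with a median of 95% soft-masked bases and 86.1% unique 51-mers. Its members with the highest 21-mer counts, such as the window nearest Tbl1xr1, were read by their letters, and by no annotation, as LINE-1 coding sequence. C/EBP strings were in 26 of the 45, SMAD strings in 19 and STAT5 strings in 11. The Chil3 region was its strongest member, followed by regions nearest Pag1, an adaptor of lymphocyte signalling (14.9 and 23.9), and Kcnip4 (14.3 and 22.6).

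The smaller families differed in kind. The family of 24 was the most intergenic (22 of 24) and the least unique (66.9% of 51-mers in the typical member), with C/EBP strings in 13 members and PU.1 strings in none. Its strongest members were nearest Pfkp (16.2 and 20.8), Gm35496 (16.2 and 25.3) and Rps20 (16.1 and 41.5). The family of 23 had medians of 5.85 and 7.67 and was led by the Luzp1 region. All 20 members of the family of 20 aligned to the B1 element that RefSeq annotates, a SINE that arose from a small cytoplasmic RNA. Its median folds were 7.8 and 11.1, and its strongest members were nearest Cbwd1, Batf, an AP-1 family factor of lymphocytes and dendritic cells (20.5 and 41.1), and Upf2 (19.8 and 24.4). In all, 47 repeat regions aligned to B1 and 13 to BC1, a tRNA-derived brain RNA that is related to ID elements, with median folds of 7.47 and 10.4, and 7.15 and 10.5. Of the other shared regions, 51 aligned to B1 and 74 to BC1. The family of 17 was AT-rich, with a mean GC content of 25.6%, and held the 2810029C07Rik region. The family of 15 included a pair of regions nearest Cd1d1, which presents lipid antigens, at 24.7 and 39.3 and at 10.4 and 10.4. The family of 13 was led by regions nearest Pld1, a phospholipase D (14.9 and 22.6), and Gsr, glutathione reductase (13.3 and 18.5).

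Copies of the same repeat inside and outside shared regions differed in the share with a C/EBP string. The best-connected window of each family except the AT-rich family of 17 was searched in the genome, and a copy was called bound if its middle lay in any shared region. Other copies could have a peak in 1 list only or lie where reads could not be placed, so they are not known to lack SMAD4. Bound copies lay in repeat regions and in other shared regions. Of these, 54 of 141 were in repeat regions in the family of 49, 20 of 26 in that of 45, 24 of 25 in that of 24, 21 of 56 in that of 23, 39 of 180 in that of 20, 8 of 9 in that of 15 and 24 of 113 in that of 13. The C/EBP shares below are therefore over bound copies of both kinds. Few copies were bound, from 26 of 88284 (0.0295%) in the family of 45 to 25 of 1208 (2.07%) in the family of 24. The share with a C/EBP string was higher among bound than other copies in 7 of 7 families. In the family of 49 it was 18.4% of 141 bound copies (12.4 to 25.8) and 4.67% of 26058 others (4.42 to 4.94). In the family of 45 it was 19.2% of 26 (6.55 to 39.4) and 2.89%, and in the family of 24 it was 68% of 25 (46.5 to 85.1) and 40.6% of 1183 (37.8 to 43.4). In the family of 23 it was 12.5% of 56 (5.18 to 24.1) and 2.83%, and in the B1 family of 20 it was 9.44% of 180 (5.6 to 14.7) and 2.92%. Intervals overlapped in the families of 15 and 13, with 11.1% and 9.61%, and 3.54% and 1.12%. In the family of 15 the direction rested on 1 of 9 bound copies (0.281 to 48.2). Copies of a family share descent and are not independent, so these intervals are too narrow. The direction was the same in 7 of 7 families when only the aligned part of each copy was searched, with 14.2% against 1.95% in the family of 49, and when only copies with at least 90% unique 51-mers were counted, with 17.3% against 4.48%. These counts are small, and in the family of 23 the intervals then overlapped, with 5.36% (1.12 to 14.9) against 1.65% (1.53 to 1.78) in the aligned part and 10% (3.33 to 21.8) against 3.64% (3.38 to 3.92) in unique copies. In the family of 24 only 3 bound copies were that unique, 2 of them with the string. In the family of 15 only 4 were, 1 of them with the string. In the aligned part the direction rested on 1 bound copy in each of the families of 15 and 13.

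**Figure D5:**
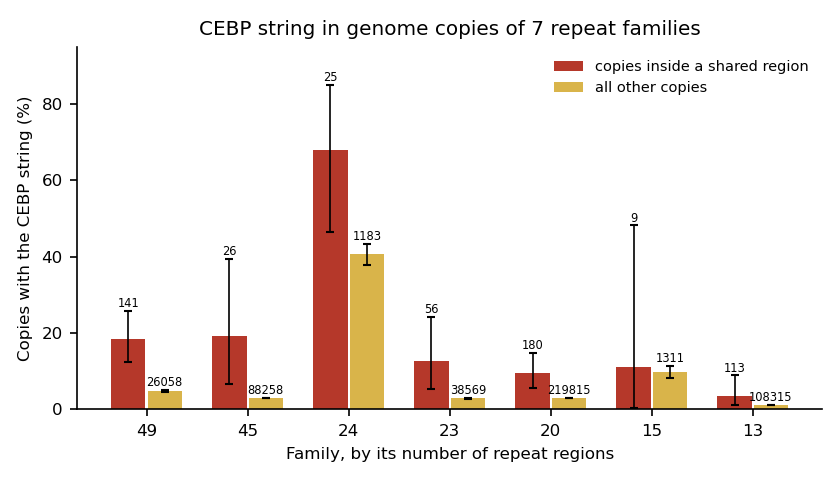
Share of genome copies with a C/EBP string (y axis, percent, bars from 0, error bars exact 95% intervals, number of copies above) for each of 7 repeat families (x axis, by their number of repeat regions), in copies inside a shared region (red) and all others (yellow). Red bars are higher in each family, with 68% against 40.6% in the family of 24 and 18.4% against 4.67% in the family of 49, and their intervals overlap the yellow ones in the families of 15 and 13.

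In the families of 49 and 24, a part of the bound copies had the string at the same place. These families are shown because at least 8 of their bound copies had it there. That place was taken as the most frequent one among bound copies, which favours them, so the shares at it are a description. In the family of 49, 13 of 141 bound copies (9.22%, 5 to 15.3) had it 65 bp before the middle, within 3 bp, and 219 of 26058 other copies did (0.84%, 0.733 to 0.959). Of the 13, 8 lay in repeat regions. The strongest 3 of those from chromosomes printed here are shown with the 3 best-scoring copies outside shared regions that lacked it. The latter were placed by their best match to the 16 bases before the string. All are on the strand of the copy, with the C/EBP string in capitals.
Repeat region nearest F630040K05Rik, chr17:45758096-45758135, plus strand: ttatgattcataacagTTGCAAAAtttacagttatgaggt
Repeat region nearest Mir1930, chr10:77662870-77662909, plus strand: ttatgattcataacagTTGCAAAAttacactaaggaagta
Repeat region nearest Fam20b, chr1:156709881-156709920, plus strand: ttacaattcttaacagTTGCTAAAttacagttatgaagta
Copy outside shared regions, chr15:63496338-63496377, minus strand: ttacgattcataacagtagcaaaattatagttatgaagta
Copy outside shared regions, chr3:143044018-143044057, plus strand: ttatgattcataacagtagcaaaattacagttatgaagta
Copy outside shared regions, chr2:157491180-157491219, minus strand: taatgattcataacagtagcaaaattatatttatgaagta
The lower 3 were chosen for lacking the string and placed by the bases before it, so both follow from the choice. In the order shown, the repeat regions had folds of 11.7 and 16.7, 9.1 and 13.1, and 7.47 and 12.6. In the family of 24, 8 of 25 bound copies (32%, 14.9 to 53.5) had a string 21 bp after the middle, all of them in repeat regions, and 37 of 1183 other copies did (3.13%, 2.21 to 4.29). They are shown in the same way.
Repeat region nearest 2310005A03Rik, chr2:155107400-155107439, minus strand: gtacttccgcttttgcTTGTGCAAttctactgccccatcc
Repeat region nearest Raet1e, chr10:22200427-22200466, plus strand: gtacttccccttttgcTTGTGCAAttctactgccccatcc
Repeat region nearest Gm10825, chr10:22390666-22390705, plus strand: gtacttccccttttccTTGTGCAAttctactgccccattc
Copy outside shared regions, chr13:3393698-3393737, plus strand: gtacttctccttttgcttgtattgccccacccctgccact
Copy outside shared regions, chr12:65357871-65357910, minus strand: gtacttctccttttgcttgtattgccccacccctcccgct
Copy outside shared regions, chr3:127480646-127480685, plus strand: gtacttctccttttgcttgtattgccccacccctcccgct
In the order shown, the folds were 14.6 and 28.4, 8.77 and 11.3, and 6.82 and 16.7. The copies outside shared regions were chosen for their score against the searched window, which held no C/EBP string at these places, and they are not typical of all copies. PU.1 strings differed in direction between families. They were in none of 25 bound copies of the family of 24 (0 to 13.7) and 27.5% of 1183 others (24.9 to 30.1). They were in 16.1% of bound copies of the family of 23 (7.62 to 28.3) and 2.68% of the others, and in 5.67% (2.48 to 10.9) and 1.94% in the family of 49. SMAD strings were in 69.2% of 26 bound copies of the family of 45 (48.2 to 85.7) and 21.8% of the others, and in 15% of 180 bound B1 copies (10.1 to 21.1) and 10.1% of the others. The SMAD string was not alone in this in the family of 45. STAT5 strings there were in 73.1% (52.2 to 88.4) and 48.4%, and RBPJ strings in 0% (0 to 13.2) and 11.6%. Median identity to the searched window was 84% in its bound copies and 80.5% in the others. RUNX strings were in 62.4% and 51.4% in the family of 49 (53.9 to 70.4, and 50.8 to 52). Nuclear receptor strings of the family of 23 were rarer among bound copies, 16.1% (7.62 to 28.3) against 47.3%. Median shares of unique 51-mers in bound and other copies were 89.1% and 49.7% in the family of 45, 67.5% and 55% in that of 24, 100% and 87.4% in that of 23, and 100% and 82.1% in that of 20. They were level at 100% in the family of 49, 78.1% and 76.2% in that of 13, and lower in bound copies in that of 15, with 75.5% and 84.1%. Apart from the count over well-placed copies given above, the part of this was not tested.

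Tandem repeats were a small class of repeat regions. A window counted as tandem if at least 50 of its bases lay in exact runs with a period of 1 to 6 bp. This held for 20 repeat regions (4%, 2.46 to 6.11), 26 of the other shared regions (0.248%) and 5.55% of soft-masked tiles. The leading period was 2 bp in 9 of them, 4 bp in 6, 6 bp in 3, and 3 and 5 bp in 1 each. Their median folds were 5.85 and 9.58, and 4 held a C/EBP string. The strongest were a region of 5 bp units at chr9:101513323-101514270, with 17.2 and 19.9 and its nearest TSS 171602 bp away, a region of 3 bp units nearest Itm2b, with 15.6 and 19.4, and the Lilrb4a promoter. Among wholly soft-masked windows, the strongest were nearest Kcnip4, Msh6, a mismatch repair gene (12.7 and 25.3, 18.5% unique 51-mers), and 2810429I04Rik (11.7 and 16.7, 35.1%).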

How the data were processed

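SMAD4 HT-ChIPmentation was performed on 2 libraries of sorted AMs, with 2 inputs. After trimming (Cutadapt) and alignment to mm10 (Bowtie2), the authors filtered with SAMtools for non-duplicate proper pairs of high mapping quality. Peaks were called by them per library with MACS3 against input, at a q-value limit of 0.05. The deposited lists hold, per peak, a fold ratio, −log10 p, −log10 q and a score (the authors' −log10 q, scaled), of which the score was not used. Filtering on mapping quality removes fragments from near-identical copies, and duplicate removal limits signal in narrow repeats. Sequencing totals were not used. The fragments and control level at each summit were solved from the fold and p.

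Replicates were numbered in accession order. The reference was RefSeq GRCm38.p6, the assembly that mm10 names, of the strain of the mice. Its soft-masking program is not given in the sources used here, and another masking would give other members. The nearest gene was that with the closest TSS among 45756 curated RefSeq transcripts of 26180 genes. Strings (13) were searched on both strands. Tandem runs had at least 10 matches and 16 bp. Families were built with blastn 2.17.0 (e-value at most 1e-05, 100 bp), and copies were searched on chromosomes 1 to 19 and X. Likeness to RefSeq's annotated B1 element and small RNAs used the same limits without the length. Functions were tested on simulated data. Analyses used Python 3.11.15, numpy 2.4.6, pandas 2.3.3, scipy 1.17.1 and numba 0.67.0.

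Named regions were the 10 repeat regions with the highest smaller fold of both replicates, the 3 highest of each class or large family, and the highest nearest each listed gene. Members, lists and strings were chosen with earlier results of these data known. The search of copies, the B1 alignment, the satellite group, the regions of lowest uniqueness and the recurring string positions were added after the data were seen. No sequence of chromosome 18 is printed, and those of some other windows are not reported here. No column of per-sample values was left unmapped (0). Alternatives were the window's centre and width, the soft-masked limit, the overlap and peak thresholds, the strings, and each list alone.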

Additional observations from a re-analysis of the deposited data

How the results depend on the processing

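No paired analysis was possible because the replicate numbers only follow accession order and no result came from a test across samples. Of 174 alternatives, 120 stayed near the reported value and 54 moved from it, where near meant within 1.5 times for a number or a median 21-mer count, within the exact interval for a share and within 1 SD between the replicates for a median fold. Leaving out the 10 shared regions of high control level in both replicates (5 of them repeat regions), chosen after seeing the data, as were the checks on copies, moved none of the values it was run on. With a single list and no partner asked for (without replicate 1 or without replicate 2), there were 1148 to 1588 soft-masked peaks (6.04 to 9.7%), 35.6 to 37.2% were intronic and 58.8 to 61.6% intergenic. The C/EBP string was then in 14.9 to 24.5%, the PU.1 string in 2.9 to 6.62%, and 64.5 to 75.6% had all 51-mers unique. Without replicate 1 the median fold was 5.87. With soft-masked limits of more than 25%, more than 75% and all bases, there were 1884, 156 and 43 repeat regions (17.2, 1.42 and 0.392%). Intergenic shares were then 45.2, 68.6 and 74.4%, intronic shares 48.3, 29.5 and 25.6%, tandem shares 2.44, 1.28 and 0%, and shares with all 51-mers unique 84.9, 33.3 and 14%. The promoter share was 4.09% at 25% and 0% with all bases, the PU.1 share 3.85% at 75% and 0% with all bases, and the median 21-mer count 11.5 and 69. Windows of 50 and 200 bp on either side of the midpoint gave 6.06 and 3.81% repeat regions, C/EBP shares of 17 and 46.7%, PU.1 shares of 3.61 and 9.33%, tandem shares of 1.51 and 9.33%, and 82.8 and 37.3% with all 51-mers unique. Centring on the mean summit gave 4.13%. Promoters of 3 kb on either side gave 12.4% promoter, 39% intron and 47.6% intergenic. The wide C/EBP string gave 22.6%, and tandem limits of 25 and 100 bases gave 13 and 0.2%. Fewer regions, or longer and shorter windows, by construction account for part of these shifts, and the cause of the others was not tested. Summits of about 20 fragments limit each fold, and reads of 51 bases limit which young copies could be seen at all.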
